A study of Mus musculus with 2 samples.

Results

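Ribosome biogenesis genes, 36 in all, were followed in single-cell RNA-seq of LSK CD150+ cells from mouse bone marrow, out of 31053 genes in the deposited tables. The genes were taken by symbol from a fixed list, and all 36 were found. Ribosomes are built in the nucleolus, where RNA polymerase I makes the long precursor of the ribosomal RNAs. Small nucleolar RNA-protein particles (snoRNPs) modify that precursor, and large sets of assembly factors cut it, fold it and join it with ribosomal proteins into a small and a large subunit. The pathway takes up much of the cost of growth, its output is tied to cell division, and blood stem cells are known for a low rate of protein synthesis.

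One library was labelled RUNX1 KO and 1 was labelled RUNX1 WT, each made from about 10000 sorted cells, which lack lineage markers and bear Kit, Sca-1 and CD150 on their surface. The mice belong to a Runx1 F/F Mx1-Cre model, in which an interferon-responsive promoter drives the recombinase. The genotype of the WT animals beyond that label, any inducer given, the age and the number of animals are not given in the sources used here. With 1 library per genotype no difference has a replicate check, so no test was made. Intervals are exact, at 95%, and cover only the error of counting UMIs.

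Several facts of the libraries come before the genes. The KO-labelled library kept 10769 cells with a median of 9310 UMIs (unique molecular identifiers, each a single RNA molecule counted) and the WT library kept 9472 cells with a median of 9884. Runx1, the targeted gene, stood at 196 CPM (UMIs scaled to an equal total per library) in the KO-labelled library and 104 CPM in the WT library, which goes against the label, although 3′ tags outside a deleted part check nothing. The names KO-labelled and WT stand for the labels alone. Cells with female marks numbered 8927 in the KO-labelled library and 9 in the WT library, and cells with male marks numbered 973 in the KO-labelled and 6690 in the WT library, so sex and genotype cannot be told apart over all cells. Cells with marks of both sexes (a UMI of a Y-linked gene and 2 or more of Xist) numbered 237 in the KO-labelled library and 4 in the WT library. What made them was not tested. The libraries shared 39 barcodes. The sort markers were present: Kit was at 141 CPM in KO-labelled cells and 150 CPM in WT cells, and Ly6a, which encodes Sca-1, was at 49.0 CPM in KO-labelled cells and 35.5 CPM in WT cells. Slamf1, which encodes CD150, was at 28.5 CPM in KO-labelled cells and 17.5 CPM in WT cells. Ribosomal protein genes took 31.5% of UMIs in KO-labelled cells and 28.6% in WT cells, and this share enters every CPM value.

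The genes lie on 17 chromosomes (GENCODE M21, build GRCm38). Of the 36, 7 genes, which is 19.4%, hold snoRNA genes within their bounds, against 1.95% of 9571 measured genes with a match. The 7 hosts are Ncl, Nop56, Nop58, Dkc1, Wdr43, Ppan and Gnl3, and they hold 21 annotated snoRNA genes. Nop56 holds 5 of these, among them Snord57 and Snord110, and Nop58 holds 4. Of the 36 genes, 13 overlap another counted gene on the opposite strand, among them Polr1a, Bop1, Heatr1, Wdr12, Nle1 and Gnl3, and 0 do so on the same strand. The share of all genes with such an overlap is not given here, so 13 is not read as high or low. The 3′ kit marks strand, but no source used here gives the setting of the authors' counting.

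Start regions from RefSeq (GRCm38.p6) were matched for 31 of the 36 genes. They were searched on both strands, from 250 bases before to 50 bases after the start, for CACGTG, the E-box preferred by MYC proteins, and for TGTGGT, the core that RUNX proteins bind, which reads ACCACA on the other strand. The motifs can share the bases TG at their ends, and in the windows shown here they do not overlap. CACGTG occurred in 6 of the 31 (19.4%), against 8.09% of 27025 genes with a window of that length. The 6 are Nop2, Pes1, Wdr43, Utp4, Utp20 and Nle1. The RUNX core occurred in 4 of 31 (12.9%), namely Nop56, Pes1, Heatr1 and Bysl, against 18.9% of all genes. A match is a string of letters and not a bound site. As 3 examples, windows are shown with an E-box alone, RUNX cores alone and both, cut to 280 bases that end 30 bases after the start. All are on the plus strand, written 5′ to 3′, and the motifs are in capitals.
Nop2, chr6:125131633-125131912: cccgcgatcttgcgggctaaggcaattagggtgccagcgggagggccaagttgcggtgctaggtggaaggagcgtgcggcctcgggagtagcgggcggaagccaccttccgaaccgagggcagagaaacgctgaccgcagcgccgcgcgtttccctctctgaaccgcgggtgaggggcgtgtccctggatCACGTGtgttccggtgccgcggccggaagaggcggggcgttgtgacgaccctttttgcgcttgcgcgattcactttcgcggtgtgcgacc
Nop56, chr2:130274162-130274441: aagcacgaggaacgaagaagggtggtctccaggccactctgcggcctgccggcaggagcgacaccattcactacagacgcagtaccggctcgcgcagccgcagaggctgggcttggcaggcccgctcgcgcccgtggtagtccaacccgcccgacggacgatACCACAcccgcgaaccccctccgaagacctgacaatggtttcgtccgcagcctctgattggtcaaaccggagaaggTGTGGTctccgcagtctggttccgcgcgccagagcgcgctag
Pes1, chr11:3963725-3964004: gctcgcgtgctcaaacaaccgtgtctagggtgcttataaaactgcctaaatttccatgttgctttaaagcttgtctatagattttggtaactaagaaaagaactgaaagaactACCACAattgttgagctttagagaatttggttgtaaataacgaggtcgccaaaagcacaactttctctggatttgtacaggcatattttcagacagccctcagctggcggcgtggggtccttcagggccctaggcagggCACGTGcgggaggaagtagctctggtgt
In the Nop2 window the E-box begins 60 bases before the start, and in the Pes1 window it begins at base 2 after it. The RUNX cores begin 88 and 12 bases before the start in Nop56 and 137 bases before it in Pes1.

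The 36 genes together were lower in the library labelled KO. They took 0.725% of all UMIs in KO-labelled cells (864489 UMIs) and 0.807% in WT cells (908976 UMIs), a ratio of 0.898 (95% interval 0.896 to 0.901). The median cell gave them 0.615% in the KO-labelled library and 0.712% in the WT library. Between male cells of both libraries the ratio was 0.887. The S phase genes, 27 genes of DNA replication, were also lower, at a summed 2574 CPM in KO-labelled cells and 3049 CPM in WT cells. Mki67, a mark of cycling cells, was detected in 47.4% of KO-labelled cells and 57.8% of WT cells.

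Gene by gene, 32 of the 36 had a lower CPM in the KO-labelled library, where 66.1% of the 9572 genes at 5 CPM or more were also lower. The median log2 ratio of the 36 was -0.14, against -0.083 over all genes, and 24 of the 36 lay under that all-gene median. Of the 36, 9 were lower by 1.2-fold or more (19.7% of all genes were) and 2 by 1.5-fold or more (3.85% of all genes). None was higher by 1.2-fold or more, as 8.12% of all genes were. The count lower at any size thus exceeded the share of all genes, while the counts past 1.2-fold and 1.5-fold on the lower side were near it. With TMM factors, which set most genes level between libraries, 23 of the 36 were lower beside 46.6% of all genes, 13 of the 36 were then higher (53.4% of all genes), and the medians were -0.039 for the 36 and 0.016 for all genes. In the plot of levels by role, the spacing between the libraries is small beside the range between genes.

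**Figure D1:**
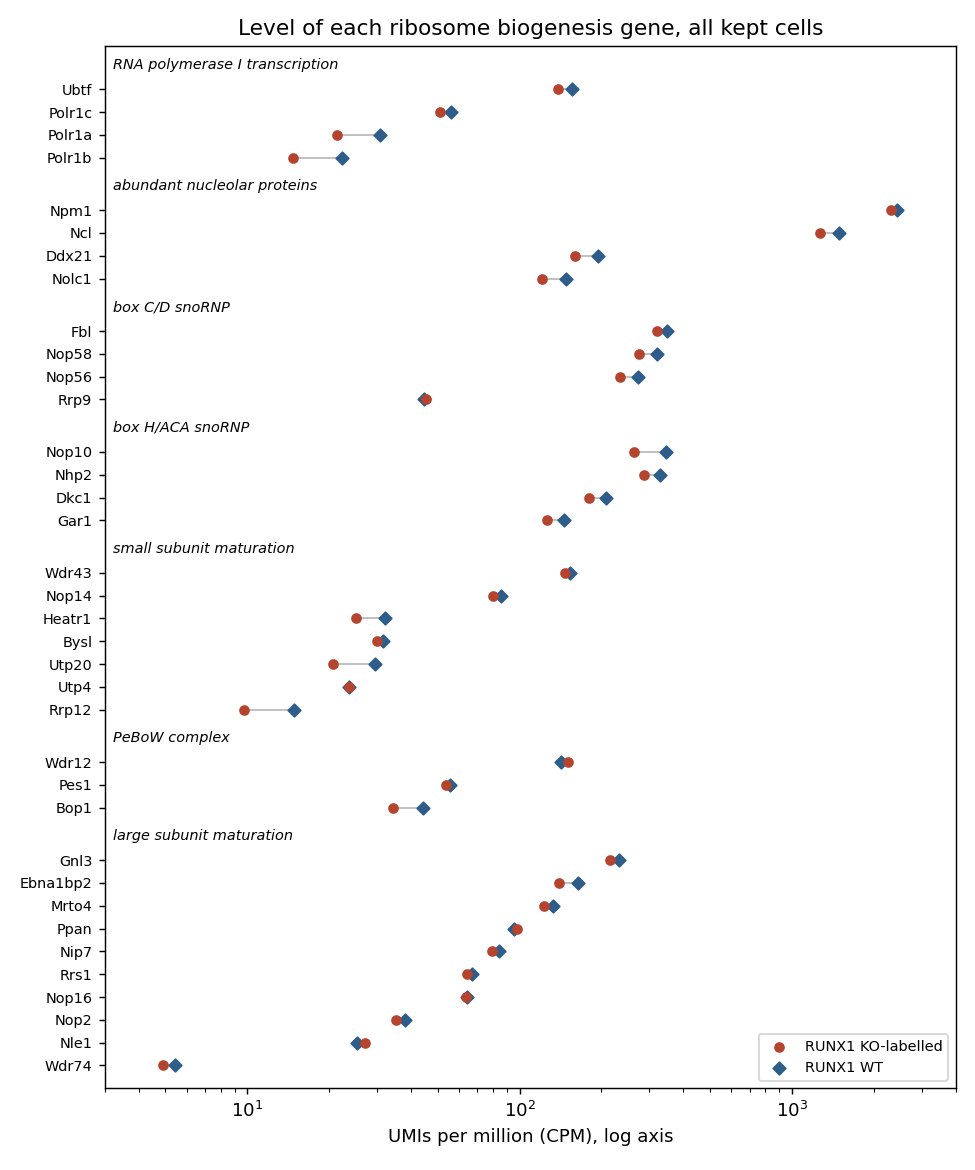
Level of each of the 36 genes in all kept cells, in CPM on a log axis, with the KO-labelled library as circles and the WT library as diamonds, grouped by role. Npm1 is highest at 2314 CPM in KO-labelled and 2442 CPM in WT cells, and Wdr74 lowest at 4.91 CPM in KO-labelled and 5.43 CPM in WT cells.

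RNA polymerase I genes had the lowest median log2 ratio of the 7 role groups, at -0.35. All 4 were lower in the KO-labelled library, as 66.1% of all genes were. By summed CPM the group had a ratio of 0.852, above the 0.835 of the box H/ACA genes. Of 12 other genes of RNA polymerase I transcription, 11 were measured, with 9 lower and 2 higher (66.1% and 33.9% of all genes). Their median was -0.089, near that of all genes. Polr1b, which encodes the second largest subunit of the enzyme (ENSMUSG00000027395, chromosome 2, 129100995 to 129126594, plus strand), was at 14.7 CPM in KO-labelled cells and 22.3 CPM in WT cells, a ratio of 0.658 (0.619 to 0.70). Polr1a, the gene of the largest subunit, was at 21.4 CPM in KO-labelled cells and 30.8 CPM in WT cells, a ratio of 0.694 (0.660 to 0.731). Both genes of the catalytic core were thus lower in the KO-labelled library by more than their counting error. Polr1c, whose product is shared with RNA polymerase III, was at 51.2 CPM in KO-labelled cells and 56.0 CPM in WT cells (ratio 0.914). Ubtf, the factor that marks ribosomal DNA for transcription, was the most abundant of the group at 138 CPM in KO-labelled cells and 155 CPM in WT cells (ratio 0.889). Polr1a and Polr1b were each at least 1.2-fold lower (19.7% of all genes were), and the other 2 genes of the group were not.

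The abundant nucleolar proteins held most of the UMIs of the 36 genes, and all 4 had a lower CPM in the KO-labelled library (66.1% of all genes). Npm1, a nucleolar chaperone recurrently mutated in acute myeloid leukaemia (ENSMUSG00000057113, chromosome 11, 33152287 to 33163206, minus strand), was at 2314 CPM in KO-labelled cells and 2442 CPM in WT cells, a ratio of 0.948 (0.943 to 0.953). Ncl, which encodes nucleolin, was at 1272 CPM in KO-labelled cells and 1488 CPM in WT cells, a ratio of 0.854 (0.848 to 0.860). Npm1 thus stood at the level of the all-gene median and Ncl below it. Nolc1, a chaperone of snoRNPs, was at 121 CPM in KO-labelled cells and 148 CPM in WT cells (ratio 0.817), and Ddx21, an RNA helicase, was at 160 CPM in KO-labelled cells and 194 CPM in WT cells (ratio 0.821). Without Npm1 and Ncl the other 34 genes summed to a ratio of 0.885.

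The snoRNP genes were lower with 1 exception. In the box C/D particles, which methylate ribosomal RNA, Fbl encodes the methyltransferase fibrillarin and was at 320 CPM in KO-labelled cells and 347 CPM in WT cells, a ratio of 0.921 (0.908 to 0.934). The scaffold genes Nop56 and Nop58 had ratios of 0.862 and 0.860. Rrp9, whose product binds the U3 snoRNA, was the exception at 45.3 CPM in KO-labelled cells and 44.7 CPM in WT cells, a ratio of 1.01 (0.976 to 1.05), so that no difference was detectable at this depth. In the box H/ACA particles, which make pseudouridine, Nop10 was at 263 CPM in KO-labelled cells and 346 CPM in WT cells, a ratio of 0.759 (0.748 to 0.771). Its partners Dkc1 (the enzyme dyskerin, encoded on the X chromosome), Gar1 and Nhp2 had ratios of 0.867, 0.872 and 0.880. Nop10 was the 6th most abundant of the 36 genes in KO-labelled cells and the 4th in WT cells.

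Genes of small subunit maturation divided by size of ratio. Rrp12, a factor for export of the small subunit (ENSMUSG00000035049, chromosome 19, 41862851 to 41896173, minus strand), had the lowest ratio of the 36, at 9.70 CPM in KO-labelled cells and 14.9 CPM in WT cells (0.652, 0.605 to 0.704). Utp20 was at 20.6 CPM in KO-labelled cells and 29.5 CPM in WT cells (0.701, 0.665 to 0.738), and Heatr1, a subunit of the complex that binds the nascent precursor, was at 25.2 CPM in KO-labelled cells and 31.9 CPM in WT cells (0.788, 0.75 to 0.827). Utp4 and Wdr43 act in the same complex as Heatr1, and their ratios were 0.996 (0.944 to 1.05) and 0.956. Wdr43 was the most abundant of the 7 genes at 147 CPM in KO-labelled cells and 154 CPM in WT cells. Nop14 and Bysl had ratios of 0.942 and 0.951. Thus 3 of the 7 were lower by 1.2-fold or more (19.7% of all genes were) and the other 4 by less.

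The PeBoW complex, a trio of proteins that processes the large subunit RNA, held genes in both directions. Wdr12 was at 150 CPM in KO-labelled cells and 142 CPM in WT cells, a ratio of 1.06 (1.04 to 1.08). Pes1 was at 53.9 CPM in KO-labelled cells and 55.4 CPM in WT cells, a ratio of 0.973 (0.940 to 1.01). Bop1 was at 34.3 CPM in KO-labelled cells and 44.4 CPM in WT cells, a ratio of 0.773 (0.741 to 0.806). The partners of 1 complex therefore did not move as a unit.

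The remaining 10 genes act in large subunit maturation, and none differed by 1.2-fold. Of all genes, 19.7% were lower and 8.12% higher by that much. Gnl3, which encodes the GTPase nucleostemin, was the most abundant at 215 CPM in KO-labelled cells and 233 CPM in WT cells (ratio 0.922). The lowest ratio was that of Ebna1bp2, at 140 CPM in KO-labelled cells and 164 CPM in WT cells (0.855, 0.837 to 0.873). The highest ratio of all 36 genes was that of Nle1, at 27.0 CPM in KO-labelled cells and 25.3 CPM in WT cells (1.07, 1.02 to 1.12). Ppan was also above equality at 1.02 (0.996 to 1.05). Nop16, Rrs1, Nip7, Mrto4, the RNA methyltransferase gene Nop2 and Wdr74 had ratios between 0.904 and 0.986. The median log2 ratio of the group, -0.093, was near that of all genes.

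**Figure D2:**
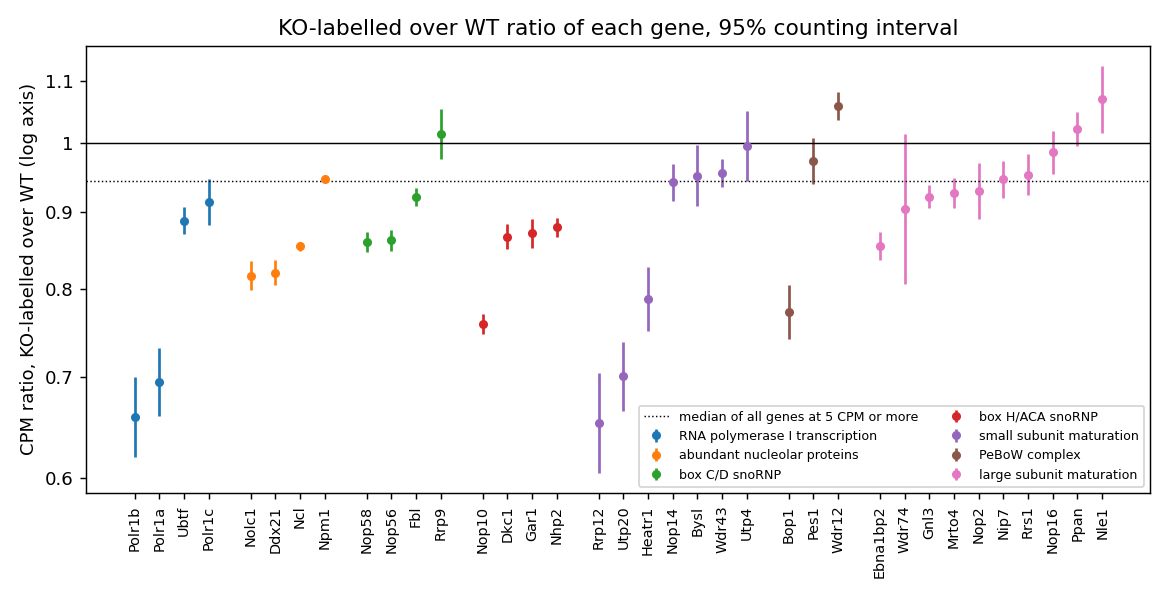
CPM ratio, KO-labelled over WT, of each of the 36 genes in all kept cells on a log axis, with exact 95% intervals for counting error and colours for the role groups. The solid line is equality and the dotted line the median of all genes at 5 CPM or more; Rrp12 (0.652) and Polr1b (0.658) lie lowest and Nle1 (1.07) highest.

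Cells in which Mki67 was detected carried more of the 36 genes than cells without it. In the KO-labelled library the summed share was 0.770% in Mki67-positive cells and 0.650% in Mki67-negative cells, a ratio of 1.19. In the WT library it was 0.836% in Mki67-positive cells and 0.731% in Mki67-negative cells, a ratio of 1.14. Mki67-positive cells were also deeper, with a median of 12796.5 UMIs in the KO-labelled library and 12733.5 in the WT library, against 7261 in KO-labelled and 6996 in WT cells that were Mki67-negative. Each cell was also thinned to 3000 UMIs, and Mki67 was called in the thinned counts. The ratios of positive to negative cells were then 1.05 in the KO-labelled and 1.03 in the WT library. That call can move cells with few Mki67 UMIs into the negative class. Without the 5% deepest cells the ratio of positive to negative cells was smaller in both libraries. It was then lower in the KO-labelled than in the WT library, with values in the closing section. With the classes unchanged, the mean over cells of the share was 0.687% in Mki67-positive and 0.615% in Mki67-negative KO-labelled cells. The WT means were 0.771% in Mki67-positive and 0.684% in Mki67-negative cells.

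By gene, 33 of the 36 were higher in Mki67-positive cells in the KO-labelled library (47.5% of all genes were) and 33 in the WT library (50.1%). The size was past 1.2-fold for 9 genes in the KO-labelled library (20.2% of all genes) and 7 in the WT library (18.2%). These counts and the ratios by gene that follow include the deepest cells and were not made without them. Mrto4 had ratios of positive to negative cells of 1.41 in the KO-labelled and 1.3 in the WT library, and Nhp2 had ratios of 1.39 in the KO-labelled and 1.29 in the WT library. Gnl3 did not follow, with 213 CPM in Mki67-positive and 217 CPM in Mki67-negative cells of the KO-labelled library (ratio 0.980). The order of the genes was alike in both libraries, with a Pearson r of 0.837 and a Spearman rho of 0.856 over the 36 log2 ratios, which share the choice of genes and the link of Mki67 with depth.

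Between the libraries, the summed share was lower in KO-labelled cells of both classes. The ratio of KO-labelled to WT was 0.922 (0.919 to 0.925) in Mki67-positive cells and 0.889 (0.884 to 0.894) in Mki67-negative cells. There were 31 of 36 genes lower in Mki67-positive cells (64.7% of all genes) and 30 of the 35 measured in Mki67-negative cells (64.5%). The S phase list moved with these, at 3069 CPM in KO-labelled and 3258 CPM in WT cells that were Mki67-positive, and 1759 CPM in KO-labelled and 2502 CPM in WT cells that were Mki67-negative. A split of the cells by S phase genes follows.

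The share of the 36 genes was higher in cells with more UMIs of S phase genes, and along genes of mitosis it peaked in the middle. Each cell was thinned to 3000 UMIs, which left out 91 KO-labelled and 155 WT cells that were shallower, and was placed by its UMIs of the S list and of 26 genes of G2 and mitosis (the M list). From 0 to between 16 and 20 UMIs of the S list, the summed share climbed from bin to bin, at 0.513% and 0.807% at those ends in the KO-labelled library and 0.511% and 0.851% in the WT library. With 21 or more it was 0.768% in the KO-labelled and 0.857% in the WT library. Along the M list it formed a hump, with 0.616% at 0 UMIs, 0.786% at 6 to 10 and 0.545% at 21 or more in the KO-labelled library. The WT values at those points were 0.684%, 0.849% and 0.629%. In each bin with 1 or more UMIs of the S list the KO-labelled share was lower than the WT share, with intervals apart. At 1 to 2 UMIs it was 0.545% in the KO-labelled and 0.561% in the WT library. Both libraries had their lowest shares at the ends of the M list and at the bottom of the S list.

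**Figure D3:**
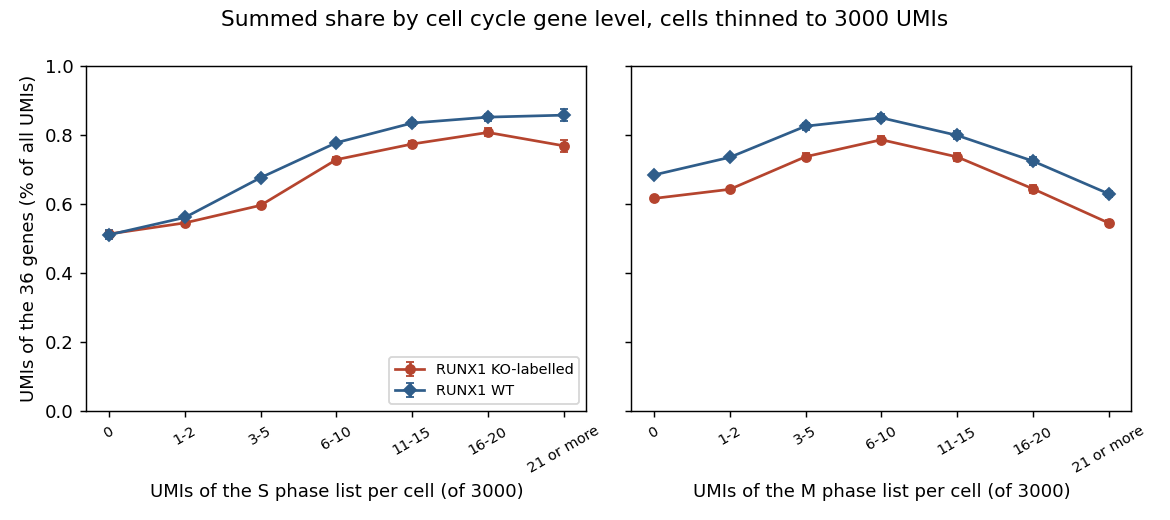
Summed share of the 36 genes, in percent of UMIs, by UMIs of the S list (left panel) and the M list (right panel) in cells thinned to 3000 UMIs, with circles for the KO-labelled and diamonds for the WT library and exact 95% intervals for counting error. At 0 UMIs of the S list the libraries lie together (0.513% KO-labelled, 0.511% WT), and they are apart in all bins of the M list.

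Next, 4 classes were made with a minimum of 3 UMIs of each list. Cells with neither list made up 25.7% of thinned KO-labelled cells (2740 cells) and 13.4% of WT cells (1250 cells). In these cells the 36 genes took 0.537% of UMIs in the KO-labelled library and 0.535% in the WT library, a ratio of 1.0 (0.987 to 1.02). Cells with S genes alone had 0.696% in the KO-labelled and 0.774% in the WT library, a ratio of 0.899 (0.890 to 0.908). Cells with both lists had 0.709% in the KO-labelled and 0.783% in the WT library (0.905), and cells with M genes alone had 0.540% in the KO-labelled and 0.590% in the WT library (0.915, 0.890 to 0.942). The lower share was therefore seen in 3 of the 4 classes and was not detectable over the cells with neither list as a whole, all of which have 0 to 2 UMIs of the S list. In those cells 14 of the 35 measured genes had a lower CPM in KO-labelled cells, where 58% of all genes were.

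With the WT mix of these classes given to both libraries, the summed share was 0.673% in the KO-labelled library and 0.737% in the WT library, a ratio of 0.913, beside 0.881 with each library's own mix. Cells with 2 or 3 UMIs of the S list, near the line between classes, were 22.3% of KO-labelled and 15.1% of WT cells. Within the class of S genes alone, the S list itself stood at 2704 CPM in KO-labelled and 3182 CPM in WT cells, and its part in the remaining difference was not tested. Free RNA can add UMIs of either list, and how much it did was not tested.

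The contrast of S and M cells held gene by gene. In cells with S genes alone over cells with M genes alone, 33 of 35 measured genes were higher in the KO-labelled library (47.3% of all genes) and 36 of 36 in the WT library (48.8%). Gnl3 was at 239 CPM in S cells and 123 CPM in M cells of the KO-labelled library, with S over M at 1.93 (1.70 to 2.21). Nop56 was at 235 CPM in S cells and 153 CPM in M cells of that library (1.53, 1.36 to 1.72) and at 261 CPM and 166 CPM in S and M cells of the WT library (1.57, 1.37 to 1.80). Npm1 differed less, with ratios of 1.19 in the KO-labelled and 1.23 in the WT library. The exceptions in the KO-labelled library were Polr1c, at 42.8 CPM in S cells and 56.5 CPM in M cells (0.757, 0.619 to 0.933), and Nop14, with a ratio of 0.993 (0.837 to 1.18). Over cells with neither list, S cells were higher in 34 of 35 genes in the KO-labelled library (45.9%) and 36 of 36 in the WT library (47.7%).

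Single cells carried few UMIs of each gene. At 3000 UMIs the median cell held 18 UMIs of the 36 genes in the KO-labelled library and 21 in the WT library, from 9 detected genes in KO-labelled and 10 in WT cells. Cells with none numbered 6 in the KO-labelled and 4 in the WT library. Over 10678 KO-labelled and 9317 WT cells, the members' UMIs had a Spearman rho with 133 other ribosome biogenesis genes of 0.463 in the KO-labelled and 0.525 in the WT library. With the S list rho was 0.377 in the KO-labelled and 0.390 in the WT library, and with the M list it was 0.016 in the KO-labelled and 0.021 in the WT library. With Myc, a transcription factor known to drive ribosome biogenesis, rho was 0.083 in the KO-labelled and 0.077 in the WT library, which in counts this sparse is no finding. All of these share the cells and the fixed total of 3000 UMIs per cell.

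Next the cells were divided by 1 marker each: Procr, a marker of blood stem cells, Pf4 (3 or more UMIs) of the megakaryocyte lineage, Mpo of the granulocyte-monocyte lineage and Car1 of the erythroid lineage. Within each class the marker list of that lineage was at least 2.07 times its level over all cells in both libraries. Each list holds the gene that sets its class, so part of this rise is fixed by the choice of cells. Not every gene of a list rose. Slamf1, of the stem list, was at 17.4 CPM in KO-labelled cells of the Procr class, below its 28.5 CPM over all KO-labelled cells. In WT cells it was at 20.5 CPM in the Procr class and 17.5 CPM over all cells. In WT cells of the Car1 class, Car1 gave 1561 CPM of the list's 3296, and over all WT cells 495 of 1591. The classes overlap, with 12% of KO-labelled and 17.7% of WT cells in more than 1 class. Pf4 stood at 128 CPM in KO-labelled and 738 CPM in WT cells of the Procr class, and whether free RNA carries it there was not tested.

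By summed UMIs the share was lowest in Procr-positive and highest in Car1-positive cells in both libraries. By the median cell Car1-positive cells had 0.697% in the KO-labelled and 0.780% in the WT library, and Pf4-positive cells 0.655% in the KO-labelled and 0.801% in the WT library, so that in WT cells the Pf4 class was then highest. Procr-positive cells had 0.605% in the KO-labelled library (788 cells) and 0.672% in the WT library (938 cells). Car1-positive cells had 0.928% in the KO-labelled library (2302 cells) and 0.941% in the WT library (2379 cells). Of the 4 classes, Car1 was highest for 36 of the 36 genes in the KO-labelled library and 33 in the WT library, and Procr was lowest for 34 genes in each. Against all other cells, all 36 genes were higher in Car1-positive cells in both libraries, where 43% of all genes were higher in the KO-labelled and 42.5% in the WT library. Past 1.2-fold there were 36 genes in the KO-labelled library (18.2% of all genes) and 20 in the WT library (10.8%). These counts leaned on the deepest cells. Without the 5% deepest cells, 34 of 35 genes were higher in Car1-positive cells in the KO-labelled library (42.9% of all genes) and 35 of 36 in the WT library (43.9%), and past 1.2-fold there were 9 in the KO-labelled (7.88%) and 11 in the WT library (8.26%). In Procr-positive cells against all others, 35 of 35 measured genes were lower within the KO-labelled library (44.8%) and 36 of 36 in the WT library (45.9%).

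Procr-positive cells also had Mki67 detected least often of the 4 classes, in 35.9% of KO-labelled and 34.6% of WT cells, at the lowest median depth. Among Procr-positive cells the share was 0.663% in KO-labelled and 0.730% in WT cells with Mki67, and 0.542% in KO-labelled and 0.598% in WT cells without it. Ncl stood at 1035 CPM in KO-labelled and 1216 CPM in WT cells of the Procr class, beside 1723 CPM in KO-labelled and 1769 CPM in WT cells of the Car1 class. Mrto4 spanned 91.5 CPM in the Procr class and 187 CPM in the Car1 class of the KO-labelled library. The order of Procr and Car1 cells thus held for an abundant and a rarer gene alike.

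**Figure D4:**
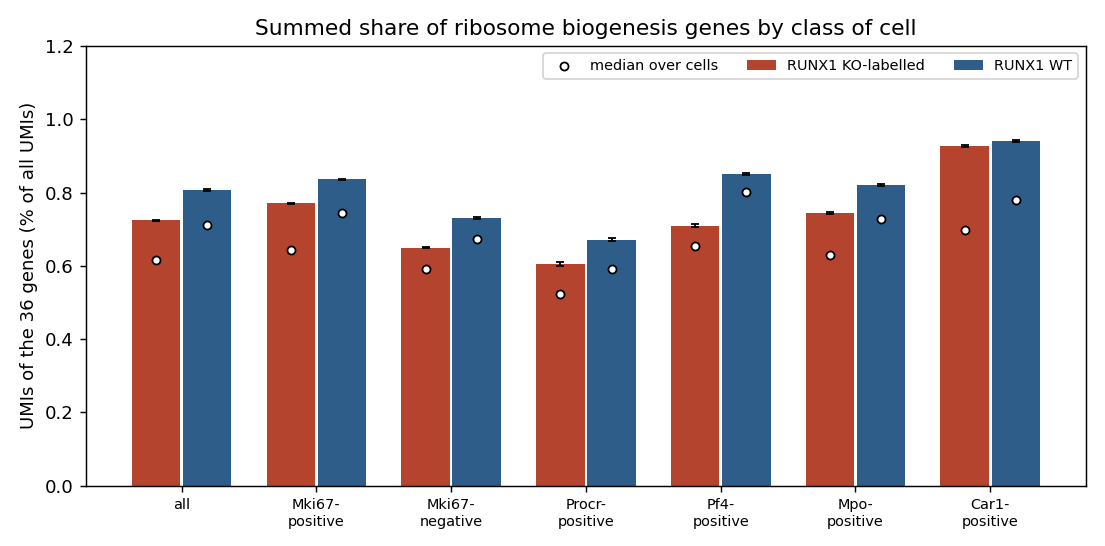
Summed share of the 36 genes, in percent of UMIs, by class of cell, with the KO-labelled library left of the WT library, exact 95% intervals for counting error on the bars and the median over cells as open points. KO-labelled bars are lower in all 7 sets of cells, least in Car1-positive cells (0.928% KO-labelled, 0.941% WT).

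Among the 4 classes, at these minima, the difference between the libraries was widest in Pf4-positive cells. There the share was 0.710% in KO-labelled cells (2042 cells) and 0.850% in WT cells (3178 cells), a ratio of 0.835 (0.830 to 0.839). All 36 genes were lower (62% of all genes), 19 of them by 1.2-fold or more (21.8%) and 4 by 1.5-fold or more (4.46%). The median log2 ratio was -0.28, against -0.074 over all genes, and with TMM factors 34 of 36 were lower beside 45.6% of all genes. Rrp12 was at 10.7 CPM in KO-labelled and 17.3 CPM in WT cells of this class (0.618), Heatr1 at 24.2 CPM in KO-labelled and 35.6 CPM in WT cells (0.680), and Nolc1 at 114 CPM in KO-labelled and 162 CPM in WT cells (0.705). Pf4, which sets the class, was itself at 1991 CPM in KO-labelled and 3479 CPM in WT cells within it. The S list was at 2810 CPM in KO-labelled and 3222 CPM in WT cells of the class, and the neutrophil marker list at 197 CPM in KO-labelled and 23.1 CPM in WT cells. Without the 5% deepest cells the neutrophil list was at 20.7 CPM in KO-labelled and 23.5 CPM in WT cells of the class, and the ratio of the share was 0.839 (0.834 to 0.844). The part of Pf4 itself and of the S list in the result was not tested. With at least 10 UMIs of Pf4 the ratio was 0.830, and Procr-positive cells with at least 3 UMIs of Procr had a lower one, 0.772.

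In Procr-positive cells the ratio was 0.901 (0.890 to 0.911), with 31 of 35 genes lower (60.5% of all genes), or 24 with TMM factors (44.6%). Polr1a had the lowest ratio there, at 16.9 CPM in KO-labelled and 30.8 CPM in WT cells (0.549). Nle1 had the highest, at 26.3 CPM in KO-labelled and 21.6 CPM in WT cells (1.22). In Mpo-positive cells the share was 0.745% in KO-labelled cells (2551 cells) and 0.820% in WT cells (2018 cells), a ratio of 0.909 (0.904 to 0.914), with 30 of 36 genes lower (65.3%), or 20 with TMM factors (46.3%). With at least 3 UMIs of the marker the ratio was 0.772 (0.731 to 0.814) in Procr-positive and 0.926 in Mpo-positive cells. Other cell types differed within the Mpo class, with the neutrophil marker list at 1001 CPM in KO-labelled and 62.5 CPM in WT cells and the basophil list at 214 CPM in KO-labelled and 873 CPM in WT cells. Their part in the result was not tested. A lower CPM in the KO-labelled library in each of the 4 classes was found for 15 of the 35 genes measured in all of them, near the 40.9% of all genes for which this held. This count includes the deepest cells, on which the Car1 class leans as described below. Without the 5% deepest cells, 31 of 35 genes were lower in Procr-positive (59.9% of all genes) and 36 of 36 in Pf4-positive cells (62.1%). In Mpo-positive cells 34 of 36 were then lower (64.1%), and in Car1-positive cells 34 of 36 (64.7%). Polr1a, Polr1b, Utp20, Rrp12, Nop10, Bop1 and Heatr1 were among the 15.

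Car1-positive cells differed least, and this rested on a small number of deep cells. The ratio was 0.985 (0.981 to 0.990), or 1.05 with TMM factors, with 21 of 36 genes higher and 15 lower (34.9% and 65.1% of all genes), and 27 higher with TMM factors (52.4% of all genes). Utp4 was at 36.5 CPM in KO-labelled and 29.4 CPM in WT cells of the class (1.24), and Wdr74 at 7.25 CPM in KO-labelled and 5.99 CPM in WT cells (1.21). Of the 10 large subunit genes, 9 were higher, all but Ebna1bp2. For 11 of the 36 genes the ratio was above 1 in Car1-positive cells and below 1 in another class, with both intervals clear of 1, a split between classes that 6.26% of all genes had. The 5% deepest cells of each library held 338 Car1-positive cells in the KO-labelled and 291 in the WT library. In these the share was 1.29% in KO-labelled and 1.16% in WT cells, a ratio of 1.11 (1.1 to 1.12). In the other Car1-positive cells it was 0.722% in KO-labelled and 0.852% in WT cells, a ratio of 0.847 (0.841 to 0.852), with 34 of 36 genes lower (64.7%). Among the deepest 5% the ratio was also higher in Procr-positive cells, at 1.11 (1.08 to 1.14; 27 KO-labelled and 45 WT cells), and was 0.991 in Mpo-positive and 0.867 in Pf4-positive cells.

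The deep Car1-positive cells had the highest shares of all sets examined here. Their erythroid marker list stood at 6315 CPM in the KO-labelled and 4528 CPM in the WT library. This was 4.19 times the level of all KO-labelled cells and 2.85 times that of all WT cells. The list holds Car1, by which the cells were chosen, so part of this rise is fixed in advance. No caller for doublets was run, and their part in the deep cells was not tested. Without the deepest 5% of all cells, 34 of the 36 genes had a lower CPM in KO-labelled cells (65.5% of all genes) and 15 were lower by 1.2-fold or more (20.2%).

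**Figure D5:**
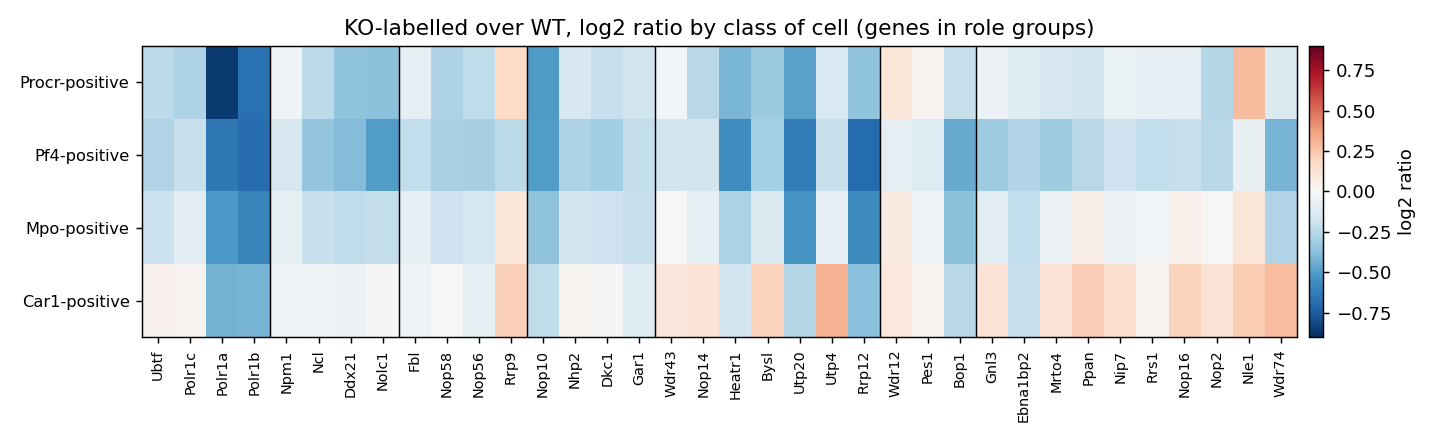
Log2 ratio, KO-labelled over WT, of each of the 36 genes (columns, in role groups parted by lines) in Procr-, Pf4-, Mpo- and Car1-positive cells (lines from top to bottom), with blue for lower and red for higher in the KO-labelled library. In CPM all 36 genes are lower in Pf4-positive cells (34 with TMM factors), and 21 are higher in Car1-positive cells (27 with TMM factors).

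Other genes of the pathway, from a list of 133, had a median log2 ratio below 0 in CPM, as all genes did. Of 131 measured, 100 were lower and 31 higher in the KO-labelled library (66.1% and 33.9% of all genes). There were 14 lower by 1.2-fold or more (19.7% of all genes). Their median log2 ratio was -0.069, against -0.083 over all genes, so by the median they were not lower than all genes. By count, a larger share of them than of all genes was lower at any size. The log2 ratio of the TMM factors, -0.098, is larger in size than their median, so the sign of that median depends on the scaling. The lowest ratios at 20 CPM or more were those of Mdn1, an AAA-type ATPase that remodels the large subunit, at 29.8 CPM in KO-labelled and 44.8 CPM in WT cells (0.665), the RNA acetyltransferase gene Nat10 (0.666) and Mybbp1a (0.740). The highest were those of the export adaptor gene Nmd3, at 42.0 CPM in KO-labelled and 36 CPM in WT cells (1.17), Nsa2 (1.16) and the methyltransferase gene Dimt1 (1.12). Genes of ribosomal proteins, the product that these factors assemble, went the other way, with 75 of 83 measured genes higher and a median log2 ratio of 0.13. Myc was at 80.5 CPM in KO-labelled and 72.2 CPM in WT cells, a ratio of 1.11. Thinned cells with a Myc UMI had 0.694% in the KO-labelled and 0.785% in the WT library, and cells without one had 0.638% in the KO-labelled and 0.726% in the WT library.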

How the data were processed

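The files hold UMI counts, 1 per gene and cell barcode, as the authors deposited them. The submitters' processing notes give Cell Ranger 2.1.1 and mm10, and the headers of the matrices give software version 3.1.0. The 3′ v2 kit is named in the protocols. Depth per cell is given in the report.

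Groups follow the genotype labels. Cells were kept from 500 detected genes upward and up to 10% mitochondrially encoded UMIs (629 KO-labelled and 497 WT barcodes were left out). UMIs were summed over cells and scaled to the library or class total (CPM), with no pseudocount. Sums have exact Poisson, shares Clopper-Pearson and ratios conditional binomial intervals. Positive cells had at least 1 UMI of the marker (Pf4 3). Cells were thinned to 3000 UMIs without replacement. Counts of genes are over those that reach 5 CPM in 1 of the libraries. No doublets were removed. The members, lists and classes were chosen with earlier results of these data known, and the split by depth after those values were seen. In each role group the most abundant gene and those with the highest and lowest ratio were given with values; other genes named were chosen after their values were seen.

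On simulated sums of 9353 genes with counting error only, all 100 genes set to a ratio of 0.769 passed 1.2-fold and 0 of 9153 unchanged genes did. The simulated sums hold no difference between animals or in the make-up of cells. They check the calculation and give no rate of false calls for the real libraries. Python 3.11.15, numpy 2.4.6, scipy 1.17.1, pandas 2.3.3 and edgeR 4.0.16 (TMM factors, 0.967 for the KO-labelled and 1.03 for the WT library) were used. Alternatives are given in the closing section.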

Additional observations from a re-analysis of the deposited data

Results flagged for a closer look

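There were 11 genes with a KO-labelled over WT ratio below 1 in 1 marker class and above 1 in another, with both counting intervals on opposite sides of equality. This held for 6.26% of the 9572 genes at 5 CPM or more, whose intervals are as wide as their own counts make them. The difference between classes was not tested, and the classes share cells. In 9 of the 11 the lowest class was Pf4-positive cells, and in all 11 the highest was Car1-positive cells. Nop2 had ratios of 0.839 in Procr-positive and 1.09 in Car1-positive cells, and Nop14 had 0.841 in Procr-positive and 1.09 in Car1-positive cells. For the other 9 the first ratio is that of Pf4-positive and the second that of Car1-positive cells. Among factors of the small subunit and the U3 particle these were 0.885 and 1.07 for Wdr43, 0.870 and 1.24 for Utp4, and 0.847 and 1.16 for Rrp9. Among factors of the large subunit they were 0.864 and 1.15 for Nop16, 0.75 and 1.21 for Wdr74, and 0.880 and 1.11 for Nip7. They were 0.801 and 1.09 for Mrto4, 0.842 and 1.16 for Ppan, and 0.801 and 1.1 for Gnl3. Without the 5% deepest cells, 0 of the 11 had an interval above 1 in Car1-positive cells. Utp4 (1.04, 0.929 to 1.17) and Ppan (1.01, 0.951 to 1.07) were the 2 with a ratio above 1, and the other 9 lay between 0.805 (Wdr74) and 0.986 (Nop16).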

How the results depend on the processing

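No paired analysis was possible because each genotype has 1 library, and no replicate could be left out. Ratios of the summed share are KO-labelled over WT, in the order all, Mki67-positive, Mki67-negative, Procr-, Pf4-, Mpo- and Car1-positive cells. With TMM factors they were 0.961, 0.986, 0.951, 0.964, 0.893, 0.972 and 1.05, so that Car1-positive cells reversed, and the median log2 ratio of the 36 genes was -0.039. With ribosomal protein and mitochondrially encoded genes left out of the total they were 0.932, 0.947, 0.922, 0.922, 0.856, 0.942 and 1.02, again reversed in Car1-positive cells. With minima of 1000 genes and a limit of 5% mitochondrially encoded UMIs they were 0.859, 0.884, 0.835, 0.834, 0.808, 0.870 and 0.946 (median -0.21). Thinned to 3000 UMIs, with markers called in the thinned counts, they were 0.881, 0.893, 0.879, 0.913, 0.812, 0.90 and 0.936 (median -0.22). For all thinned cells with the WT mix of cell cycle classes the ratio was 0.913. Without Npm1 and Ncl they were 0.885, 0.908, 0.867, 0.875, 0.814, 0.903 and 0.999. Without the 5% deepest cells they were 0.860 in all, 0.851 in Mki67-positive, 0.882 in Procr-, 0.870 in Mpo- and 0.847 in Car1-positive cells (median -0.23). In male cells they were 0.887 in all, 0.877 in Mki67-negative, 0.844 in Procr-, 0.824 in Pf4-, 0.934 in Mpo- and, reversed, 1.02 in Car1-positive cells. The last 4 ratios rest on 58, 180, 243 and 196 male KO-labelled cells, against 671, 2408, 1531 and 1866 male WT cells. With a higher UMI minimum they were 0.929 in Mki67-positive, 0.772 in Procr-, 0.926 in Mpo- and 0.997 in Car1-positive cells. As a mean over cells they were 0.884 in all, 0.892 in Mki67-positive, 0.899 in Mki67-negative, 0.891 in Mpo- and 0.929 in Car1-positive cells.

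With those genes left out of the total, the ratio of Mki67-positive to Mki67-negative cells was 1.11 in the KO-labelled and 1.08 in the WT library. It was 1.13 and 1.06 with the stricter filter. After thinning, with Mki67 called in the thinned counts, it was 1.05 and 1.03. It was 1.03 in the KO-labelled and 1.08 in the WT library without the deepest cells, 1.15 and 1.1 without Npm1 and Ncl, 1.12 and 1.13 as a mean over cells, and 1.2 and 1.15 with a higher UMI minimum. In male cells it was 1.2 in the KO-labelled library.

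The cause was not tested for any of these. Of the 36 single ratios, 23 were below 1 and 1, that of Wdr12, was above 1 in all settings run, 12 fell on both sides, and 0 moved by more than 1.5-fold. Using all barcodes, or leaving out those found in both libraries, moved no summed share by more than its counting interval. Of the alternatives, 4 (without shared barcodes, without Npm1 and Ncl, as a mean over cells and with the WT mix) were chosen after seeing the data. With 1 library per genotype depth limits only counting error, and differences between animals were not measured.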
